A study of Mus musculus with 24 samples.

Results

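Cpt2L-/- Ppara KO livers were compared with Cpt2L-/- livers, a comparison of Ppara loss on a background that lacks mitochondrial long-chain fatty acid oxidation in hepatocytes. The 8 libraries, 4 per group, were chosen by genotype label from the 24 RNA-seq libraries of the series, and all 35275 genes of the read count table entered. All mice were male, on a C57BL/6 background, 8 to 10 weeks of age and fasted for 24 h. Both groups carry the liver deletion of Cpt2, made with an Albumin-Cre transgene that acts in hepatocytes and bile duct cells, so neither group is a wild type. The labels do not say how Ppara was removed, or whether it was removed from the liver alone or from the whole body, and they number the libraries as replicates without naming animals or litters, so p-values measure the spread between these libraries. RNA was sequenced as single 75-base reads, and total counts were 15974454 to 18461578 in Cpt2L-/- and 14470968 to 18940002 in Cpt2L-/- Ppara KO libraries. Control (wild type by label) and Ppara KO livers, 4 libraries each, are used for 1 side comparison. The study's methods describe control mice as littermates with floxed Tsc1 and Cpt2 alleles, which the labels do not mention. The Tsc1 L-/- and Tsc1Cpt2 L-/- livers of the series, 4 libraries each, lack Tsc1, or Tsc1 and Cpt2, in the liver. They enter only the scaling of the levels given below, the fit of 24 libraries and the values of 2 genes. The labels name no agent for any of these groups.

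Carnitine palmitoyltransferase 2 (Cpt2) releases long-chain acyl groups from carnitine inside mitochondria, the last step before β-oxidation. PPARα, the product of Ppara, is a nuclear receptor that binds fatty acids and, with a retinoid X receptor as partner, turns on genes for fatty acid uptake, mitochondrial and peroxisomal β-oxidation, ω-hydroxylation, ketone body synthesis and the fasting hormone Fgf21. It is the main transcriptional regulator of the hepatic response to fasting. Peroxisomal β-oxidation and microsomal ω-hydroxylation do not need Cpt2.

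Ppara itself was counted at 272, 308, 383 and 306 CPM (counts scaled by TMM to a common library size, given here and below in the order of replicates 1 to 4) in Cpt2L-/- livers and at 89.97, 26.2, 45.7 and 41.1 CPM in Cpt2L-/- Ppara KO livers. The groups did not overlap, and the log2 fold change was −2.65 ± 0.34, with an adjusted p of 0.00173 (fold changes are given ± SE, adjusted p from the edgeR quasi-likelihood test, Benjamini-Hochberg adjustment, as for every adjusted p below). Reads from an allele with part of the gene removed can still be counted, so the remaining level is not a level of functional receptor. Ppara lies at chr15:85734983-85802819 on the plus strand (GRCm38 coordinates of the count table). Cpt2 was counted at 92.98, 105, 79.9 and 88.9 CPM in Cpt2L-/- and at 123, 39.1, 31.4 and 37.4 CPM in Cpt2L-/- Ppara KO livers. Replicate 1 of the second group lay above all Cpt2L-/- libraries and the other 3 lay below them, and the log2 fold change was −0.67 ± 0.39 (adjusted p = 0.249) with replicate 1 and −1.36 ± 0.15 (adjusted p = 8.84e-05) without it. Counts over the whole gene do not show which exon is missing, so they do not check the Cpt2 label.

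Cpt2L-/- Ppara KO replicate 1 stood apart from replicates 2 to 4. Principal components of the 8 libraries separated the groups along the first axis (47.3% of variance). On this axis replicate 1 scored 59.8, the farthest from Cpt2L-/-, against 22.4 to 47.9 for replicates 2 to 4. Along the second (24.5%), replicate 1 scored 60.5 and the other 7 libraries scored from −40.1 to 12.7. Its mean distance to the other libraries of its group was 102, against 73.5 to 80.7 for replicates 2 to 4 and 55.8 to 60 within Cpt2L-/-. Its mean distance to the Cpt2L-/- libraries was also the largest of its group, 118.4 against 91.95 to 102.4. Over 125 tested genes of 7 lists of fatty acid metabolism, replicate 1 was above the mean of replicates 2 to 4 for 87, with a median of 70.7% of the Cpt2L-/- mean against 46.9%. Its Ppara level was 28.3% of the Cpt2L-/- mean, against 11.9% for the mean of replicates 2 to 4. Over the 20 genes of the unfolded protein response list it was below them for 17 (medians 177% and 288% of the Cpt2L-/- mean), and over 30 P450 genes for 28 (126% and 211%). Over all 12936 tested genes the medians were 97.6% and 101%. Replicate 1 was not nearer to Cpt2L-/- throughout. Of the 789 genes lower at an adjusted p under 0.05 in edgeR, it was the farthest from Cpt2L-/- in its group for 365. It was the nearest for 230 (medians 42.8% and 51.2%). Of the 890 genes higher at that threshold it was the farthest for 361 and the nearest for 254 (medians 230% and 205%). These genes were selected with replicate 1 included. The library carries the same genotype label as the other 3, and the counts do not settle whether that label is right or whether Ppara was lost to the same extent, so every value of 4 against 4 libraries below rests on a library whose label is in doubt. Where a fold change is given for a named gene, the value without this library is added if the call changes or the fold moves by more than 1.5 times.

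**Figure D1:**
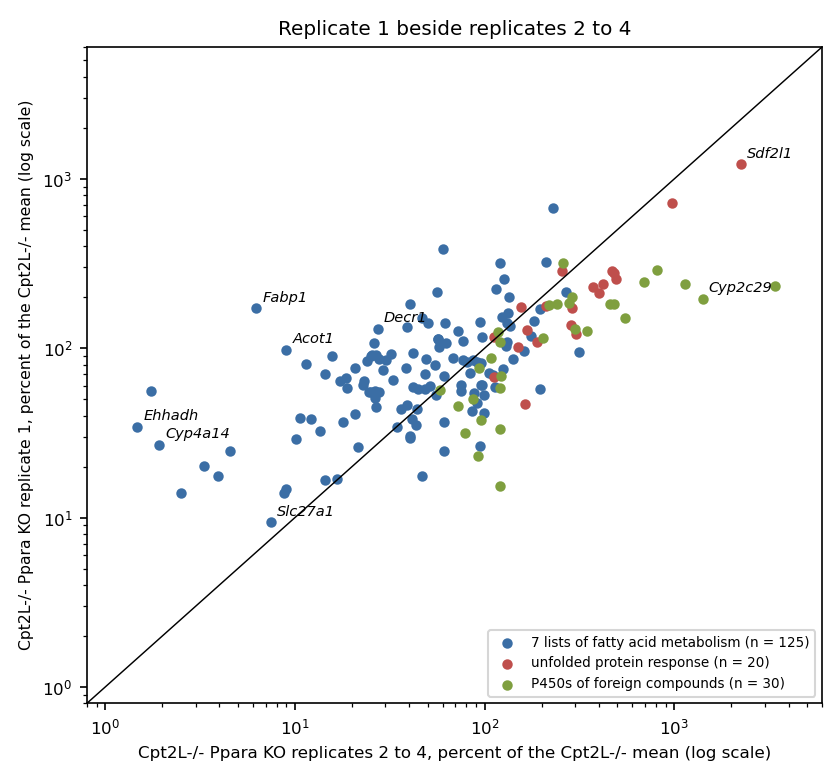
Levels of single genes in Cpt2L-/- Ppara KO replicate 1 (y axis) and in the mean of replicates 2 to 4 (x axis), both as a percent of the Cpt2L-/- mean on log scales. Points are tested members of the fatty acid lists, the unfolded protein response list and the P450 list, and the line marks equal levels. Ehhadh, Cyp4a14 and Fabp1 lie far above the line, while Slc27a1 lies near it.

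Of 12936 genes tested with all 8 libraries, 1679 (13.0%) had an adjusted p under 0.05, and these are the genes called here. Of these, 890 (6.88% of those tested) were higher and 789 (6.1%) were lower in Cpt2L-/- Ppara KO livers, and the median log2 fold change of all tested genes was 0.02. The groups did not overlap in 1559 of the called genes (12.1% of those tested). A log2 fold change of at least 1 was reached by 551 of the higher and 414 of the lower genes. Without replicate 1, 2364 of 13155 genes (18.0%) were called, 1189 (9.04%) higher and 1175 (8.93%) lower, and 1620 of the 1679 genes called with all libraries were called in the same direction. The other 59 were not called and none was called in the opposite direction. The count of called genes moved with other libraries too: it was 836, 951, 625 and 638 without Cpt2L-/- replicates 1 to 4, 682 without Cpt2L-/- Ppara KO replicate 2, 1403 without replicate 3 and 2541 without replicate 4. In bulk liver, fewer cells of a type and less RNA per cell cannot be told apart.

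**Figure D2:**
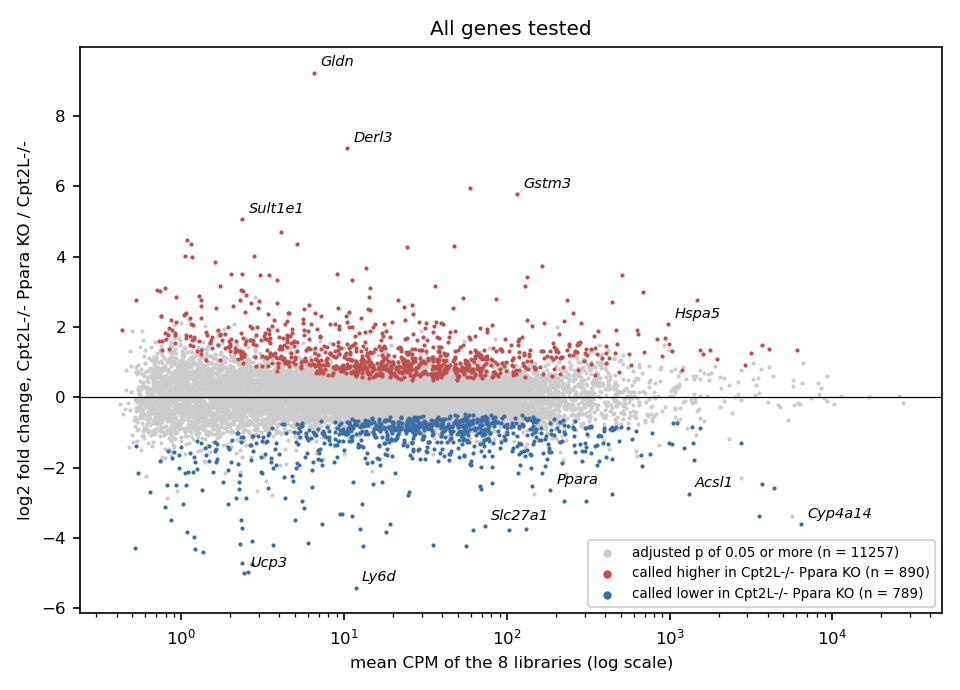
Log2 fold change of Cpt2L-/- Ppara KO against Cpt2L-/- livers (y axis) and mean CPM of the 8 libraries (x axis, log scale) for the 12936 genes tested. Red points are the 890 genes called higher, blue points the 789 called lower and grey points the rest. Acsl1 and Cyp4a14 fell from high levels, while Derl3, Sult1e1 and Gldn rose from levels near 0 in Cpt2L-/- livers.

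Genes of mitochondrial fatty acid import and β-oxidation fell in part. Of 23 tested, 8 fell and 0 rose in the edgeR test (1 was higher at an unadjusted p under 0.05, and 0 by DESeq2), with a median log2 fold change of −0.89. Without replicate 1, 20 fell and 0 rose, with a median of −1.36, and without replicate 2 of the same group 4 fell. Acadvl, the very-long-chain acyl-CoA dehydrogenase that opens the β-oxidation cycle, was at 415, 448, 462 and 455 CPM in Cpt2L-/- and at 246, 125, 125 and 122 CPM in Cpt2L-/- Ppara KO livers. All 4 libraries of the second group lay below all 4 of the first, with replicate 1 between the other 3 and Cpt2L-/- (log2 fold change −1.53 ± 0.26, adjusted p = 0.00555). Crat, carnitine acetyltransferase, fell by 2.15 ± 0.29 on the log2 scale (adjusted p = 0.00233), and Slc22a5, the plasma membrane carnitine importer, fell by 1.62 ± 0.28 (adjusted p = 0.00608). Hadha, the α subunit of the trifunctional protein, and Etfdh, which passes electrons from the flavoprotein dehydrogenases to ubiquinone, fell by 1.63 ± 0.35 (adjusted p = 0.0147) and 1.59 ± 0.34 (adjusted p = 0.0161). Leaving out Cpt2L-/- Ppara KO replicate 2 ended both calls, with adjusted p of 0.0522 and 0.0552. Cpt1b, the muscle isoform of the outer membrane enzyme and a gene within 5 Mb of Ppara, was under 2.1 CPM in all libraries and fell by 3.12 ± 0.64 (adjusted p = 0.0124).

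Other members of the pathway did not pass the edgeR test with all 8 libraries and passed it without replicate 1. Decr1, which handles unsaturated acyl-CoAs, was at 422, 568, 564 and 497 CPM in Cpt2L-/- and at 669.5, 155, 138 and 127 CPM in Cpt2L-/- Ppara KO livers. Replicate 1 was the highest of the 8 libraries and replicates 2 to 4 were the lowest, and the log2 fold change was −0.92 ± 0.5 (adjusted p = 0.222) with replicate 1 and −1.88 ± 0.18 (adjusted p = 2.35e-05) without it. Slc25a20, the carnitine-acylcarnitine carrier of the inner membrane, was at 236, 318, 319 and 306 CPM against 265, 94.6, 70.5 and 57 CPM. Its replicate 1 lay within the Cpt2L-/- range and replicates 2 to 4 below it, and the log2 fold change was −1.28 ± 0.43 (adjusted p = 0.0706) with replicate 1 and −2.0 ± 0.2 (adjusted p = 3.97e-05) without it. Acadm, the medium-chain dehydrogenase, changed less, with log2 fold changes of −0.55 ± 0.25 (adjusted p = 0.151) with replicate 1 and −0.80 ± 0.18 (adjusted p = 0.00939) without it. Cpt1a, the liver isoform of the outer membrane enzyme and the entry point of the pathway, was at 1252, 1813, 1714 and 1778 CPM and 597, 879, 1311 and 826 CPM. Here replicate 3 of the Cpt2L-/- Ppara KO group was the library that overlapped Cpt2L-/-, and the log2 fold change was −0.86 ± 0.27 (adjusted p = 0.0574), or −0.71 ± 0.22 without replicate 1 (adjusted p = 0.046).

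Peroxisomal β-oxidation held the most falls of any list. Peroxisomes shorten very-long-chain and dicarboxylic acids without Cpt2. Of 30 tested genes of peroxisomal β-oxidation and peroxisome formation, 17 fell and 1 rose, with a median of −1.15, and without replicate 1 the counts were 21 and 2. Acaa1b, a peroxisomal thiolase of the last step, was at 4810, 6723, 7121 and 6484 CPM in Cpt2L-/- and at 2046, 807, 842 and 893 CPM in Cpt2L-/- Ppara KO livers. The groups did not overlap and replicate 1 was the highest of its group, and the log2 fold change was −2.46 ± 0.35 with it (adjusted p = 0.00266) and −2.89 ± 0.22 without it (adjusted p = 5.22e-06). Hsd17b4, the D-bifunctional protein of the middle steps, fell by 1.96 ± 0.28 (adjusted p = 0.00283), and the acyl-CoA importers Abcd2 and Abcd3 by 3.31 ± 0.34 (adjusted p = 0.000658) and 1.62 ± 0.28 (adjusted p = 0.006401).

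Ehhadh, the L-bifunctional protein needed for dicarboxylic acids, had the widest split within the Cpt2L-/- Ppara KO group among the peroxisomal genes named here. It was at 8448, 9785, 10660 and 12220 CPM in Cpt2L-/- and at 3542, 132, 152 and 169.6 CPM in Cpt2L-/- Ppara KO livers. No library overlapped the other group, but replicate 1 held 34.5% of the Cpt2L-/- mean and replicates 2 to 4 together 1.47%. The log2 fold change of −3.37 ± 1.03 did not pass the test with all libraries (adjusted p = 0.055), while without replicate 1 it was −6.09 ± 0.27 (adjusted p = 1.08e-07). Pex11a, a peroxisome division factor, fell by 1.71 ± 0.43 (adjusted p = 0.0283), or 2.43 ± 0.19 without replicate 1 (adjusted p = 6.02e-06), but the call with all libraries was lost in 6 of the 8 fits that left out 1 library, those without each Cpt2L-/- replicate and without Cpt2L-/- Ppara KO replicate 2 or 3. Pecr, an enoyl-CoA reductase of peroxisomes, was the 1 gene that rose (log2 fold change 0.69 ± 0.19, adjusted p = 0.0392), and its call was lost in the same 6 fits.

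**Figure D3:**
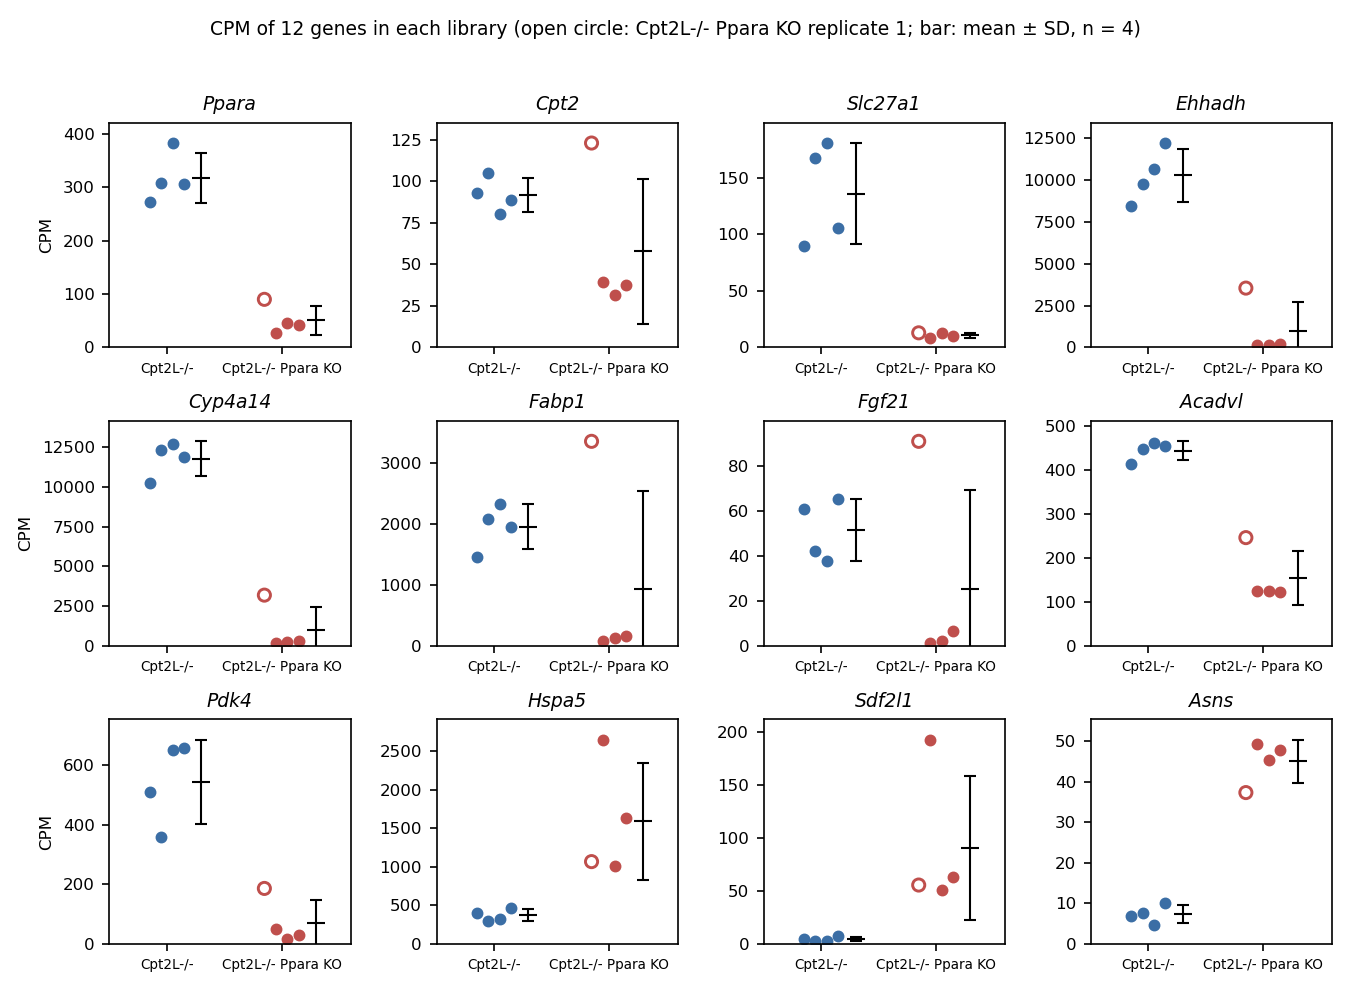
CPM (y axis, linear from 0) of 12 genes in the Cpt2L-/- (blue) and Cpt2L-/- Ppara KO (red) libraries, with replicate 1 of the second group as an open circle and bars for the mean ± SD (n = 4). Slc27a1, Acadvl, Hspa5, Sdf2l1 and Asns show groups that do not overlap, as do Ppara, Ehhadh, Cyp4a14 and Pdk4. Replicate 1 is the highest of its group for Ehhadh, Cyp4a14, Fabp1 and Fgf21, and also for Ppara, Cpt2, Acadvl, Slc27a1 and Pdk4.

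Microsomal ω-hydroxylation, the first step in making dicarboxylic acids, fell in part too. Of 14 tested genes, 8 fell and 1 rose (median −1.53), and without replicate 1, 8 fell and 2 rose. Cyp4a10 was at 5450, 6324, 7354 and 6565 CPM in Cpt2L-/- and at 1593, 276, 300.2 and 297 CPM in Cpt2L-/- Ppara KO livers, and Cyp4a14 was at 10250, 12350, 12700 and 11880 CPM and 3183, 185, 198 and 294 CPM. Both ω-hydroxylases were lower in every Cpt2L-/- Ppara KO library, with replicate 1 highest in that group. Their log2 fold changes were −3.38 ± 0.59 (adjusted p = 0.00632) and −3.61 ± 0.9 (adjusted p = 0.0281), and −4.47 ± 0.23 and −5.71 ± 0.29 without replicate 1 (adjusted p = 2.23e-07 for both). The call of Cyp4a14 with all libraries was lost when any 1 Cpt2L-/- replicate or Cpt2L-/- Ppara KO replicate 2 was left out, with adjusted p up to 0.0708, and with no filter on low counts (adjusted p = 0.103). Cyp4a31, Cyp4a32, Cyp4a12a and Cyp4a12b also fell, by 2.42 ± 0.39 to 3.78 ± 0.55 on the log2 scale. Without replicate 1 the log2 fold changes of Cyp4a31, Cyp4a32, Cyp4a12a and Cyp4a12b were −4.68 ± 0.31, −4.93 ± 0.3, −3.24 ± 0.2 and −3.04 ± 0.21 (adjusted p = 2.19e-06, 1.08e-06, 1.18e-06 and 2.17e-06). These genes are near-identical copies in a cluster, so the split of reads among them is uncertain. The gene that rose was Cyp4f16, a low member of another Cyp4 branch, from 3.298 ± 1.02 to 8.43 ± 2.65 CPM (mean ± SD, n = 4, adjusted p = 0.0193, lost without Cpt2L-/- replicate 4).

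Acyl-CoA thioesterases, which free fatty acids from coenzyme A, were split by replicate 1. Of 13 tested, 2 fell, and without replicate 1, 6 fell and 1 rose. Acot3 was at 48.3, 88.7, 207 and 81.1 CPM against 14.8, 1.95, 2.96 and 3.12 CPM and fell by 4.23 ± 0.69 on the log2 scale (adjusted p = 0.00463), or 5.29 ± 0.56 without replicate 1 (adjusted p = 0.000346), and Acot4 fell by 1.68 ± 0.28 (adjusted p = 0.00526). Both are peroxisomal enzymes. Acot1, the cytosolic member, was at 741, 1025, 1117 and 945 CPM in Cpt2L-/- and at 937, 106, 59.5 and 93.6 CPM in Cpt2L-/- Ppara KO livers. Replicate 1 lay within the Cpt2L-/- range and the other 3 far below it, and the log2 fold change was −1.68 ± 0.76 (adjusted p = 0.151) with it and −3.48 ± 0.25 (adjusted p = 3.09e-06) without it. The Acot1 to Acot4 genes are similar copies too.

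Ketone body synthesis and export, which in the fasted liver uses the acetyl-CoA of β-oxidation, had 3 falls and 1 rise among 9 tested genes (median −0.23). Bdh1, which makes β-hydroxybutyrate, and Slc16a1, a monocarboxylate transporter, fell by 0.98 ± 0.26 (adjusted p = 0.0328) and 1.07 ± 0.25 (adjusted p = 0.0223). Bdh2, a cytosolic dehydrogenase, rose from 1.47 ± 0.611 to 4.995 ± 3.297 CPM (mean ± SD, n = 4, adjusted p = 0.0332). These calls were fragile: with 1 library left out at a time, Bdh1 lost its call in 4 of 8 fits (Cpt2L-/- replicates 2, 3 and 4, Cpt2L-/- Ppara KO replicate 2), Slc16a1 in 3 (Cpt2L-/- replicates 3 and 4, Cpt2L-/- Ppara KO replicate 2) and Bdh2 in 4 (each Cpt2L-/- replicate), with adjusted p up to 0.108. The call of Bdh1 was lost in the fits of 16 and 24 libraries too (adjusted p = 0.113 and 0.064).

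Genes that bring fatty acids into the hepatocyte and activate them fell in part. Of 20 tested, 6 fell and 2 rose (median −0.37), and without replicate 1, 8 fell and 3 rose. Slc27a1, a fatty acid transport protein, was at 90.2, 168, 181 and 105 CPM in Cpt2L-/- and at 12.8, 8.14, 12.4 and 9.92 CPM in Cpt2L-/- Ppara KO livers, and Acsl1, the main long-chain acyl-CoA synthetase of liver, was at 1617, 2272, 2981 and 2275 CPM and 379, 332, 352 and 307 CPM. In both genes the 4 Cpt2L-/- Ppara KO libraries were close together and far below Cpt2L-/-, with log2 fold changes of −3.65 ± 0.28 (adjusted p = 0.000208) and −2.74 ± 0.25 (adjusted p = 0.000368). Acsl5, Slc27a4 and Slc27a2, other acyl-CoA synthetases and transport proteins, fell by 1.56 ± 0.29, 1.53 ± 0.19 and 1.30 ± 0.22 (adjusted p = 0.00791, 0.00127 and 0.00557). Cd36, the fatty acid translocase, fell by 1.64 ± 0.37 (adjusted p = 0.0199), a call lost without Cpt2L-/- replicate 3 or 4 or Cpt2L-/- Ppara KO replicate 2. The 2 that rose were Acsl4, a synthetase that prefers arachidonate (0.92 ± 0.15, adjusted p = 0.00552), and Fabp7, a fatty acid binding protein best known from brain (1.24 ± 0.27, adjusted p = 0.0165, lost without Cpt2L-/- replicate 3 or 4). Fabp1, the liver fatty acid binding protein, was at 1459, 2088, 2334 and 1946 CPM in Cpt2L-/- and at 3360, 83.5, 127 and 156 CPM in Cpt2L-/- Ppara KO livers. Replicate 1 was the highest of the 8 libraries and the other 3 the lowest, and the log2 fold change was −1.07 ± 1.0 (adjusted p = 0.475) with it and −4.0 ± 0.28 (adjusted p = 2.62e-06) without it.

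Genes of lipid droplets and lipolysis fell in part, with 7 falls among 18 tested (median −1.21), 11 falls without replicate 1, and 4 falls without replicate 2 of the same group or without Cpt2L-/- replicate 3 or 4. No member rose (0 at an unadjusted p under 0.05 in edgeR and 0 by DESeq2). Fitm2, a protein of the endoplasmic reticulum that helps droplets form, was at 161, 171, 225 and 200.5 CPM against 49.5, 43.6, 42.5 and 36.7 CPM (log2 fold change −2.14 ± 0.18, adjusted p = 0.000336). Hsd17b11, a droplet dehydrogenase, fell by 2.75 ± 0.39 (adjusted p = 0.00264), and the lipases Pnpla2, which starts triglyceride breakdown, and Lipe fell by 1.4 ± 0.2 and 1.41 ± 0.21 (adjusted p = 0.00285 and 0.00316). The droplet coat proteins Plin2 and Plin5 did not pass with all libraries. Plin2 was at 3129, 3072, 2989 and 3645 CPM and 2723, 930.4, 752 and 1238 CPM, and Plin5 at 282, 316, 344 and 327 CPM and 285, 69.96, 44.4 and 34.4 CPM. In both, replicate 1 was near or within the Cpt2L-/- range and the other 3 were far below, and without it the falls were 1.73 ± 0.22 (adjusted p = 0.000225) and 2.69 ± 0.24 (adjusted p = 1.21e-05).

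**Figure D4:**
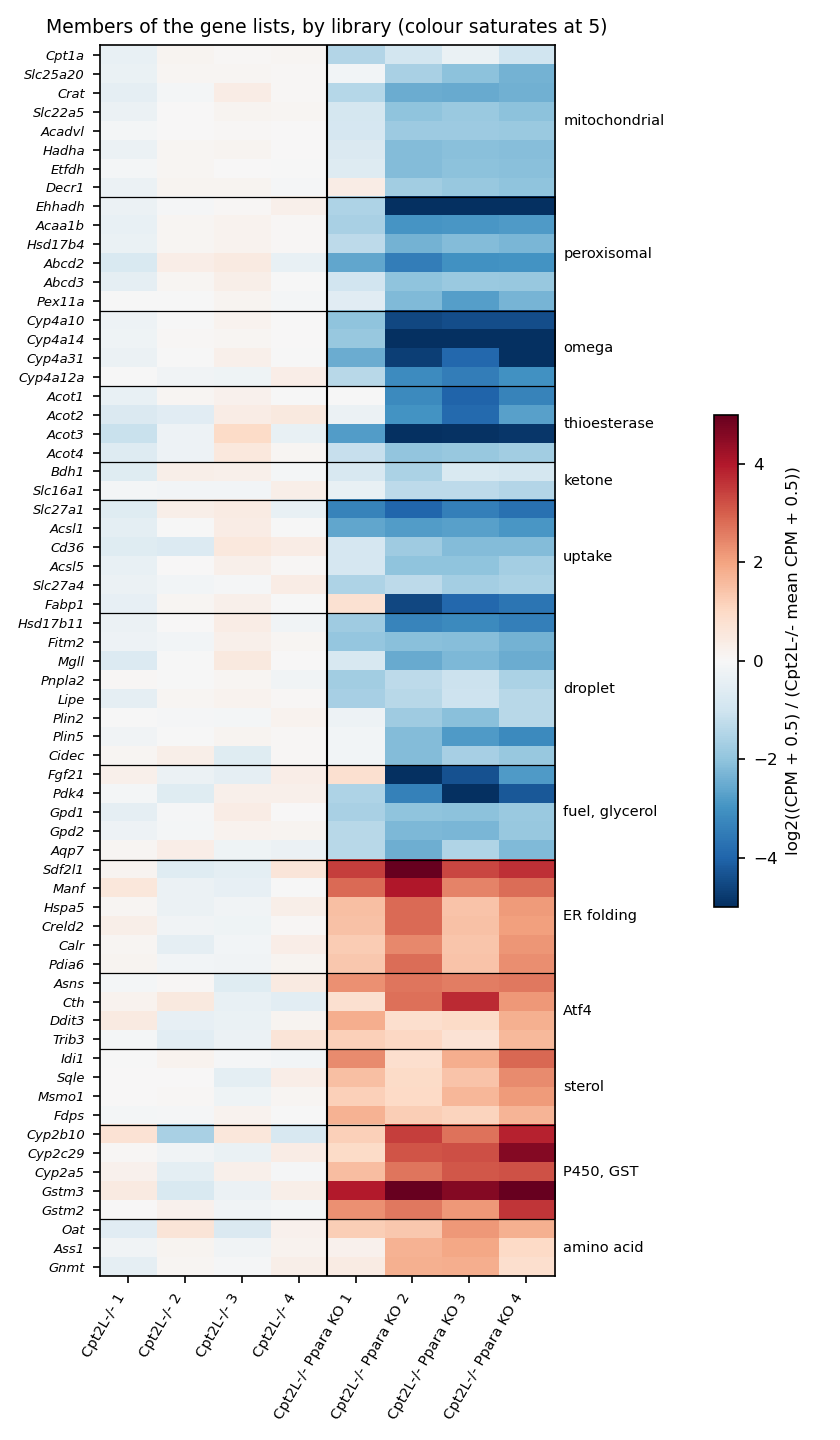
Log2 ratio of each library to the Cpt2L-/- mean (CPM with a pseudocount of 0.5, colour limited at 5) for members of the gene lists, in rows grouped by role, with the 4 Cpt2L-/- libraries on the left and the 4 Cpt2L-/- Ppara KO libraries on the right. Slc27a1 and Acsl1 are about equally blue in all 4 Cpt2L-/- Ppara KO libraries, while Decr1, Acot1, Fabp1 and Fgf21 are blue only in replicates 2 to 4.

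Secreted and fuel-switching genes followed more than 1 pattern. Fgf21, the fasting hormone of liver, was at 60.95, 41.9, 37.5 and 65.4 CPM in Cpt2L-/- and at 90.9, 0.974, 2.07 and 6.71 CPM in Cpt2L-/- Ppara KO livers. Replicate 1 was the highest of all 8 libraries and the other 3 were below 7 CPM, and no call was made with it (log2 fold change −1.04 ± 1.03, adjusted p = 0.503), while without it the log2 fold change was −3.92 ± 0.56 (adjusted p = 0.00203). Among 21 hepatokines 5 rose and 1 fell, and 8 rose and 3 fell without replicate 1. Igfbp1, a fasting-induced binding protein of insulin-like growth factors, rose by 1.32 ± 0.29 (adjusted p = 0.0177), Ahsg (fetuin-A) rose by 1.34 ± 0.28 (adjusted p = 0.0144), and Lect2 rose by 1.72 ± 0.26 (adjusted p = 0.00342). The call of Igfbp1 was lost without Cpt2L-/- replicate 2 or 3 or Cpt2L-/- Ppara KO replicate 2 and in the fit of 24 libraries (adjusted p = 0.0673), and that of Ahsg without Cpt2L-/- replicate 3 or 4. Angptl4, an inhibitor of lipoprotein lipase, had a log2 fold change of −0.63 ± 0.2 (adjusted p = 0.0594), and of −0.71 ± 0.19 without replicate 1 (adjusted p = 0.0204).

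Pdk4, the kinase that shuts off pyruvate dehydrogenase in fasting, was at 511, 359, 653 and 657 CPM in Cpt2L-/- and at 186, 51.3, 16.97 and 28.4 CPM in Cpt2L-/- Ppara KO livers. The groups did not overlap, and the fall was 2.95 ± 0.65 on the log2 scale (adjusted p = 0.0177), lost without Cpt2L-/- replicate 3 or 4 or Cpt2L-/- Ppara KO replicate 2 and with no filter on low counts (adjusted p = 0.0632), and 4.09 ± 0.39 without replicate 1 (adjusted p = 3.52e-05). Pdp2, the opposing phosphatase, also fell, by 1.72 ± 0.2 (adjusted p = 0.00102), and 4 of 12 genes of pyruvate entry fell in all. The glycerol genes Gpd1 and Gpd2, which link glycerol 3-phosphate to glycolysis and to the respiratory chain, fell by 1.88 ± 0.22 and 1.93 ± 0.22 (adjusted p = 0.00102 for both), and the glycerol channels Aqp3 and Aqp7 fell by 4.74 ± 0.84 and 2.42 ± 0.42 (adjusted p = 0.00642 and 0.00611) from means of 5.21 and 3.78 CPM. Without replicate 1 the fall of Aqp3 was 6.85 ± 0.83 (adjusted p = 0.000167). They make up the 4 falls among 19 genes of gluconeogenesis and glycerol use, of which 6 fell without replicate 1.

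Among mitochondrial carriers and uncoupling proteins 4 of 17 fell and 1 rose, and 7 fell and 2 rose without replicate 1. Ucp3, an uncoupling protein best known from muscle, was at 3.303, 5.96, 4.24 and 5.24 CPM against 0.567, 0, 0 and 0.0466 CPM (log2 fold change −5.01 ± 0.73, adjusted p = 0.00293, and −7.50 ± 0.6, adjusted p = 6.2e-06, without replicate 1), and Ucp2 fell by 1.1 ± 0.22 (adjusted p = 0.0104). Of 33 nuclear receptors and cofactors 4 fell, Ppara among them, and 1 rose (median −0.39). Esrrg, an orphan receptor of oxidative metabolism, fell from 2.29 ± 0.924 to 0.1205 ± 0.123 CPM (mean ± SD, n = 4, adjusted p = 0.00301), with a log2 fold change of −4.32 ± 0.64, or −5.14 ± 0.68 without replicate 1 (adjusted p = 0.000276). Creb3l3, the membrane-bound hepatic factor that acts with PPARα on Fgf21, fell by 0.84 ± 0.21 (adjusted p = 0.0272), and Pparg, the receptor of fat storage, rose by 0.72 ± 0.16 (adjusted p = 0.0185). The call of Creb3l3 was lost without any 1 Cpt2L-/- replicate or Cpt2L-/- Ppara KO replicate 2, and that of Pparg without Cpt2L-/- replicate 1, 2 or 3.

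Lipogenic genes fell in part. Of 15 tested, 4 fell, and 1 rose, a share near the 6.88% called higher over all genes. Without replicate 1, 5 fell and 2 rose. Gpam, which attaches the first fatty acid to glycerol 3-phosphate, fell by 1.59 ± 0.27 (adjusted p = 0.00605), Acacb, whose malonyl-CoA restrains Cpt1, by 1.55 ± 0.36 (adjusted p = 0.0213), and Srebf1, the lipogenic transcription factor, by 1.0 ± 0.26 (adjusted p = 0.0336). Thrsp, a lipogenic protein, rose by 1.52 ± 0.27 (adjusted p = 0.00651), a call lost in the fits of 16 (adjusted p = 0.203) and 24 libraries (adjusted p = 0.379). The call of Acacb was lost without Cpt2L-/- replicate 3 or 4 or Cpt2L-/- Ppara KO replicate 2, and that of Srebf1 without any 1 Cpt2L-/- replicate or Cpt2L-/- Ppara KO replicate 2 and in the fit of 24 libraries (adjusted p = 0.226). Elongases and desaturases had 3 falls among 15, and 5 falls and 1 rise without replicate 1. Lipoprotein genes had 1 fall among 19 (2 without replicate 1), a share near the 6.1% called lower over all genes.

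Protein folding in the endoplasmic reticulum had the largest share of rises among the 30 pathway lists. The unfolded protein response is the program by which cells add chaperones and degradation factors when unfolded proteins collect there. Of 20 tested genes 15 rose and all 20 had a log2 fold change above 0 (median 1.36), so that 0 fell in edgeR, 0 at an unadjusted p under 0.05 and 0 by DESeq2. Without replicate 1, 18 rose (median 1.52). Hspa5 (BiP), the main chaperone and sensor partner, was at 402, 302, 326 and 463 CPM in Cpt2L-/- and at 1066, 2646, 1009 and 1634 CPM in Cpt2L-/- Ppara KO livers. The groups did not overlap, and replicate 2 was the highest (log2 fold change 2.08 ± 0.33, adjusted p = 0.00431). Sdf2l1, a BiP cofactor, was at 5.06, 2.79, 3.12 and 7.19 CPM and 55.5, 193, 50.8 and 62.8 CPM (log2 fold change 4.30 ± 0.51, adjusted p = 0.001101). Derl3, part of a channel for misfolded proteins and not on the list, was under 0.3 CPM in each Cpt2L-/- library and at 10.8, 44.3, 9.81 and 18.2 CPM in Cpt2L-/- Ppara KO livers (adjusted p = 0.000658). Replicate 2 was the highest in these genes too. Manf, a secreted stress factor, Pdia6, a disulfide isomerase, Creld2, another such isomerase, Calr, a lectin chaperone, and Hsp90b1, an Hsp90 of the endoplasmic reticulum, rose by 3.17 ± 0.37, 2.11 ± 0.32, 2.09 ± 0.3, 1.90 ± 0.31 and 1.81 ± 0.36 (adjusted p = 0.00109, 0.00337, 0.00291, 0.00478 and 0.0115). The count of rises was 11 without Cpt2L-/- Ppara KO replicate 2 and 10 without any 1 Cpt2L-/- replicate.

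The promoters of these genes were searched for the endoplasmic reticulum stress element, CCAAT and CCACG with 9 bases between them on either strand, in windows from 250 bases before to 50 after the gene start (RefSeq, GRCm38.p6). This motif was chosen after the data were seen. It is known as a site for the factors NF-Y and ATF6. It was in 10 of the 635 genes called higher that have a promoter in the table (1.57%), in 1 of 599 called lower (Acacb, 0.167%), in 17 of 9488 tested genes (0.179%) and in 39 of all 32851 promoters (0.119%). Of 17 promoters of the unfolded protein response list 8 held it (47.1%), of which 6 belong to genes that rose with all libraries. The other 2, Canx and Syvn1, rose without replicate 1 only (0.73 ± 0.18, adjusted p = 0.0165, and 0.70 ± 0.18, adjusted p = 0.0202). The 10 genes were Hspa5, Calr, Pdia6, Hsp90b1, Derl3, Dnajc3, Creld2, Alg12, Acnat2 and Spats2l. Of these, 6 are on the list, so the shares of the list and of the genes called higher are not independent. The element is named for this stress, so matches in the list are no independent support. Creld2 and its neighbor Alg12, a mannosyltransferase, start in opposite directions and share 1 copy of the motif, and both lie near Ppara on chromosome 15. Dnajc3, a BiP cochaperone, rose by 1.02 ± 0.22 (adjusted p = 0.0174, lost without any 1 Cpt2L-/- replicate), and Alg12 by 0.89 ± 0.21 (adjusted p = 0.0234, lost without Cpt2L-/- replicate 1, 3 or 4 or Cpt2L-/- Ppara KO replicate 2). The windows are printed for 7 of the folding genes to show the shared bases, with the motif in capitals, 5 bases on each side and the strand on which it reads.
Hspa5, chr2:34772020-34772048, plus strand: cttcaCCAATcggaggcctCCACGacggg
Calr, chr8:84847070-84847098, plus strand: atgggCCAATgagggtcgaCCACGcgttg
Pdia6, chr12:17266486-17266514, plus strand: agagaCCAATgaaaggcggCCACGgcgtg
Dnajc3, chr14:118937822-118937850, plus strand: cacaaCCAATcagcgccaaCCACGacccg
Hsp90b1, chr10:86705633-86705661, minus strand: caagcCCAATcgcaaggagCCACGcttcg
Derl3, chr10:75893237-75893265, minus strand: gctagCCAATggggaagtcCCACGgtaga
Creld2 and Alg12, chr15:88819515-88819543, minus strand: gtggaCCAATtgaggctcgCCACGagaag
By the search the 5 letters at each end of the motif are the same in all windows, and the 9 bases between differ from gene to gene. A match is a description and does not show that a factor binds there.

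The PPAR response element, 2 copies of AGGTCA with 1 base between them, was searched for in the same windows on both strands. Of the 789 genes called lower 599 have a promoter in the table, and of the 50 genes of the 7 fatty acid lists called lower 34 do. Cyp4a10, Cyp4a14, Abcd2, Hsd17b4 and Crat are among the 16 not searched. The element was in 0 of the 599 called lower, 0 of 635 called higher and 3 of 9488 tested genes (0.0316%). With the looser half-site AGGNCA it was in 0 of the 599, in 1 of the 635 (Ccl6, a chemokine, 0.157%) and in 33 of 9488 (0.348%), against 125 of all 32851 promoters (0.381%). Without replicate 1 the looser motif was in 1 gene called lower (0.113% of those with a promoter) and 3 called higher (0.355%), and the stricter one in 0 of both. No match says only that these letters are not in these windows.

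Genes of the Atf4 amino acid stress response rose in part, with 7 rises and 2 falls among 31 tested (median 0.35). Asns, asparagine synthetase, was at 6.93, 7.61, 4.65 and 10.2 CPM in Cpt2L-/- and at 37.3, 49.4, 45.4 and 47.8 CPM in Cpt2L-/- Ppara KO livers. All 4 libraries of the second group were close together and above the first (log2 fold change 2.61 ± 0.23, adjusted p = 0.000368). Cth, which makes cysteine from cystathionine, rose by 2.72 ± 0.53 (adjusted p = 0.0106), with 199.9 CPM in replicate 1 and 522 to 1562 CPM in replicates 2 to 4, and Ddit3 (CHOP), a stress transcription factor, rose by 1.46 ± 0.3 (adjusted p = 0.01203).

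Cholesterol synthesis genes rose in part. Of 24 tested genes of cholesterol synthesis and uptake 11 rose and 1 fell (median 0.65), and 14 rose and 1 fell without replicate 1, while 6 rose without any 1 Cpt2L-/- replicate. Idi1, the isopentenyl diphosphate isomerase, was at 3.36, 3.996, 3.29 and 3.12 CPM in Cpt2L-/- and at 19.9, 6.54, 13.4 and 28.2 CPM in Cpt2L-/- Ppara KO livers, and Sqle, squalene epoxidase, was at 18.3, 18.4, 12.7 and 22.7 CPM and 52.7, 35.2, 49.3 and 95.97 CPM. In both, all Cpt2L-/- Ppara KO libraries were above all Cpt2L-/- libraries and replicate 4 was highest. Their log2 fold changes were 2.31 ± 0.38 (adjusted p = 0.00513) and 1.69 ± 0.3 (adjusted p = 0.00672). Msmo1, Fdps and Mvd, a demethylation enzyme, farnesyl diphosphate synthase and mevalonate diphosphate decarboxylase, rose by 1.58 ± 0.24, 1.48 ± 0.19 and 1.26 ± 0.23 (adjusted p = 0.00361, 0.00147 and 0.00687). The calls of Sqle and Mvd were lost in the fits of 16 (adjusted p = 0.0901 and 0.0888) and 24 libraries (adjusted p = 0.0549 and 0.0574), and that of Fdps in the fit of 24 (adjusted p = 0.0509). The gene that fell was Hsd17b7, a sterol reductase (−0.90 ± 0.19, adjusted p = 0.0146, lost without Cpt2L-/- replicate 4 and in the fit of 16 libraries, adjusted p = 0.0549). Of 21 genes of bile acid synthesis and transport 3 rose, and 7 rose and 1 fell without replicate 1. Slco1a4, an importer of organic anions, was at 20.7, 30.6, 28.1 and 11.2 CPM and 123, 408, 377 and 310.4 CPM (log2 fold change 3.74 ± 0.43, adjusted p = 0.000934), and Akr1d1, a bile acid reductase, rose by 2.37 ± 0.41 (adjusted p = 0.00628).

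P450 enzymes of foreign compounds rose in part. Of 30 tested P450 genes 14 rose and 1 fell (median 0.95). The one that fell was Cyp2j5, an epoxygenase, with a log2 fold change of −0.79 ± 0.23 (adjusted p = 0.04696), and its call was lost in 5 of the 8 fits that left out 1 library (without Cpt2L-/- replicate 2, 3 or 4 or Cpt2L-/- Ppara KO replicate 2 or 3). Cyp2c29 was at 87.97, 74.8, 66.3 and 108 CPM in Cpt2L-/- and at 166, 749.6, 786 and 2025 CPM in Cpt2L-/- Ppara KO livers, and Cyp2a5 at 434, 267, 449 and 360.2 CPM and 1099, 2445, 3257 and 3427 CPM. In both, all libraries of the second group were higher and replicate 1 was its lowest. The log2 fold changes were 3.46 ± 0.6 (adjusted p = 0.00625) and 2.75 ± 0.37 (adjusted p = 0.0020), and Cyp2b10 and Cyp3a59 rose by 3.17 ± 0.63 and 2.53 ± 0.34 (adjusted p = 0.0113 and 0.0020). The call of Cyp2b10 was lost with no filter on low counts (adjusted p = 0.0612). Of 24 genes of the Nrf2 and glutathione list 8 rose (median 0.08), and 10 rose and 2 fell without replicate 1, among them the glutathione transferases Gstm3, from 5.86, 2.22, 3.29 and 5.13 CPM to 72.7, 182, 109.6 and 545 CPM (log2 fold change 5.77 ± 0.68, adjusted p = 0.001101), and Gstm2 and Gsta2, which rose by 2.82 ± 0.31 and 1.70 ± 0.31 (adjusted p = 0.000839 and 0.00734). Many of these genes belong to families of near-identical copies, so reads may be split among copies. Of 10 tested female-biased liver genes, 5 rose and 2 fell, and of 13 genes of the growth hormone and insulin-like growth factor axis 3 fell. Of 20 male-biased genes 1 rose and 1 fell (3 and 1 without replicate 1). Those shares with all libraries are near the 6.88% called higher and 6.1% called lower over all genes.

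Amino acid breakdown and acute phase genes rose in part. Of 30 tested genes of the urea cycle and amino acid breakdown 8 rose (median 0.47), 15 without replicate 1, and 2 or 3 when a Cpt2L-/- replicate or Cpt2L-/- Ppara KO replicate 2 or 3 was left out. Oat, ornithine aminotransferase, was at 302, 692, 266 and 508 CPM in Cpt2L-/- and at 1033, 1125, 1975 and 1531 CPM in Cpt2L-/- Ppara KO livers. The groups did not overlap (log2 fold change 1.68 ± 0.35, adjusted p = 0.01298). Of 28 acute phase genes 6 rose (median 0.67), and 15 rose and 1 fell without replicate 1. Lcn2, an iron-siderophore binding protein, rose by 2.52 ± 0.46 (adjusted p = 0.00735), Apcs, serum amyloid P, by 1.93 ± 0.24 (adjusted p = 0.00143), Hamp, the iron hormone hepcidin, by 1.51 ± 0.26 (adjusted p = 0.00628), and Mt2, a metallothionein, by 1.53 ± 0.31 (adjusted p = 0.01203). The call of Mt2 was lost in the fits of 16 (adjusted p = 0.173) and 24 libraries (adjusted p = 0.143).

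In the remaining lists the counts are read beside the 6.88% called higher and 6.1% called lower over all genes. Among p53 targets 2 of 20 rose, among cell cycle genes 3 of 18 rose, among clock genes 1 of 17 rose and 2 fell, and among insulin and Foxo genes 1 of 13 fell. Without replicate 1, 4 p53 targets rose and 3 fell, 2 cell cycle genes rose and 2 fell, and the counts of the other 2 lists were the same.

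**Figure D5:**
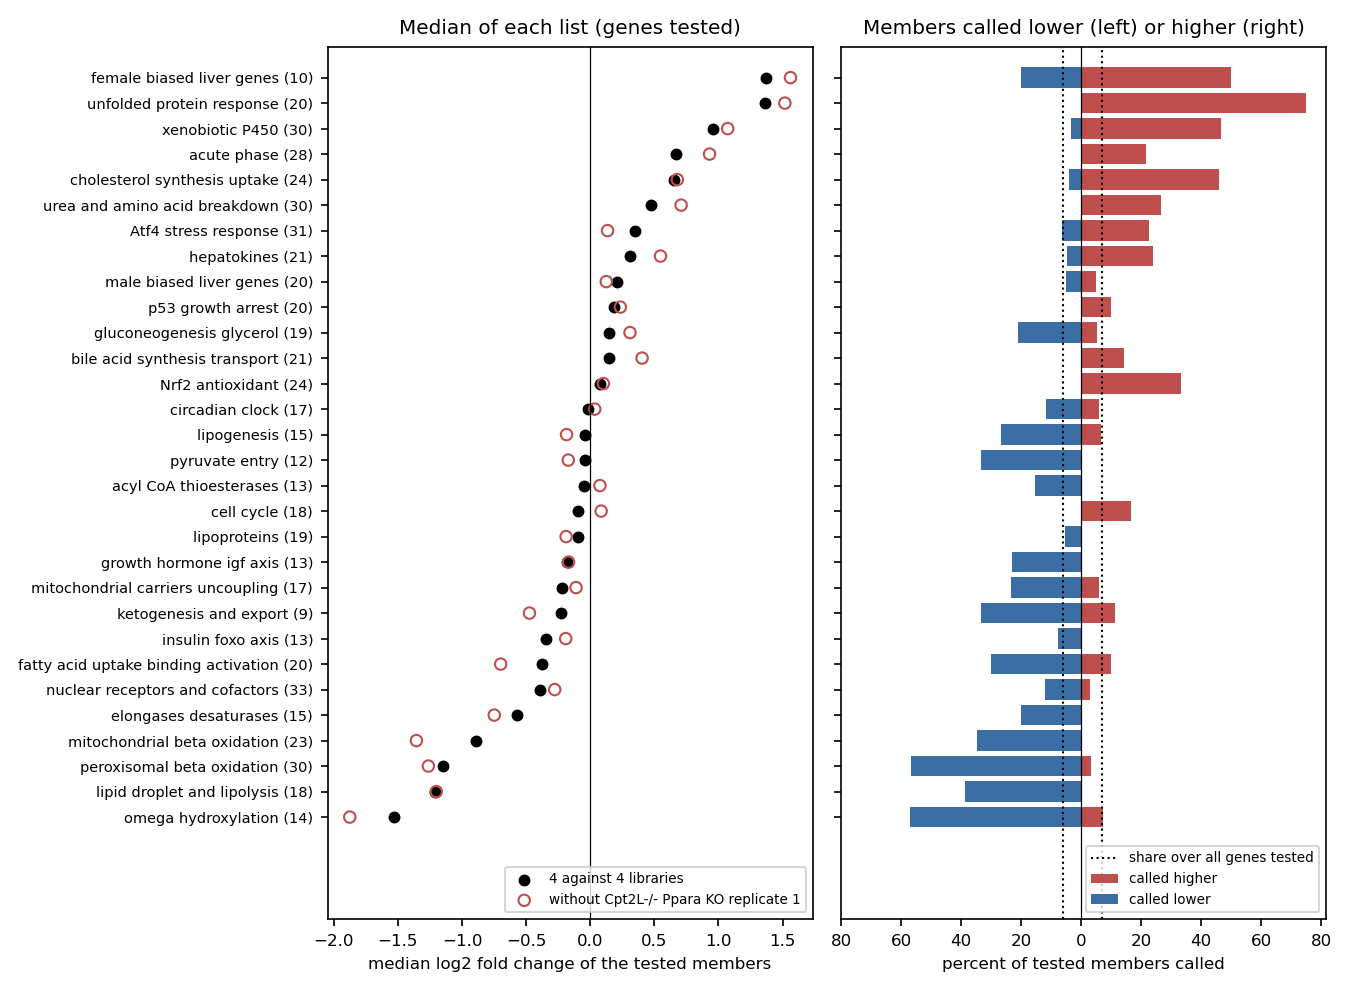
Left, the median log2 fold change of the tested members of each of the 30 pathway lists (x axis), with all 8 libraries (filled) and without Cpt2L-/- Ppara KO replicate 1 (open). Right, the percent of tested members called lower (blue, to the left) or higher (red, to the right), with dotted lines at 6.1% and 6.88%, the shares over all genes. Peroxisomal β-oxidation and ω-hydroxylation have the largest shares of falls and the unfolded protein response the largest share of rises.

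Many of the largest single changes were in genes of low level in 1 of the groups, while Gstm3, named above, was at 2.22 to 5.86 CPM in Cpt2L-/- livers. Gldn, gliomedin, known from nerve, had 1 count in the 4 Cpt2L-/- libraries together, and the ratio of summed counts, Cpt2L-/- Ppara KO to Cpt2L-/-, was 922 with a 95% counting interval from 165 to 36400. It was at 1.99, 15.8, 22.4 and 11.8 CPM in Cpt2L-/- Ppara KO livers, lowest in replicate 1. Sult1e1, the estrogen sulfotransferase, was at 0.3197, 0.127, 0 and 0.0557 CPM and 3.76, 9.81, 1.48 and 3.35 CPM (adjusted p = 0.00361), and Acmsd, which diverts tryptophan from NAD synthesis, at 3.09, 2.41, 2.76 and 1.34 CPM and 13.6, 67.1, 76.8 and 27.6 CPM (log2 fold change 4.26 ± 0.54, adjusted p = 0.00149). Bhlha15 (Mist1), a factor of secretory cells, and Rian, an imprinted noncoding RNA, rose by 3.99 ± 0.71 and 4.02 ± 0.52 (adjusted p = 0.00656 and 0.00163). In the other direction, Ly6d, a surface antigen, was at 18.8, 23.7, 16.1 and 33.5 CPM in Cpt2L-/- and at 1.06, 0.278, 0.532 and 0.326 CPM in Cpt2L-/- Ppara KO livers (log2 fold change −5.41 ± 0.4, adjusted p = 0.000208). Scn4b, a sodium channel subunit, Zfp423, a zinc finger factor, Trpm5, a cation channel of taste cells, and Slc16a13, a monocarboxylate transporter, fell, with log2 fold changes of −4.96 ± 0.64, −4.72 ± 0.48, −4.39 ± 0.57 and −4.21 ± 0.42 (adjusted p = 0.00165, 0.000658, 0.00165 and 0.000637), or −6.29 ± 0.56 for Scn4b without replicate 1 (adjusted p = 1.24e-05), each from a mean of 2.6 to 6.9 CPM in Cpt2L-/- livers and without overlap between groups.

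Markers of cell types were summed in each library. Of 12 hepatocyte markers in the table all were detected, with sums of 35850 to 61480 CPM in Cpt2L-/- and 41740 to 71180 CPM in Cpt2L-/- Ppara KO livers, and 3 of them rose (5 without replicate 1). Erythroid markers, 7 in the table with none at 0, summed to 154 to 403 CPM and 389 to 1058 CPM, and 4 of the 5 tested rose (2 without replicate 1), Hba-a1 by 1.61 ± 0.41 (adjusted p = 0.0292) and Hbb-bs by 1.79 ± 0.35 (adjusted p = 0.0104), both calls lost in the fit of 24 libraries (adjusted p = 0.081 and 0.0589). Their part in the other rises was not tested. Among 11 markers of lipid-associated macrophages Trem2, Mmp12 and Cd63 rose, by 1.74 ± 0.45, 3.47 ± 0.61 and 1.65 ± 0.44 (adjusted p = 0.0314, 0.00649 and 0.0343), while the sums overlapped (615 to 665 and 581 to 721 CPM). The calls of Hba-a1, Trem2 and Cd63 were each lost in 5 or 6 of the 8 fits that left out 1 library, Cd63 without Cpt2L-/- Ppara KO replicate 1 (1.17 ± 0.37, adjusted p = 0.0575) among them, and all 3 without Cpt2L-/- replicate 2 or 3 or Cpt2L-/- Ppara KO replicate 2. Trem2 lost its call in the fit of 16 libraries (adjusted p = 0.0815), and Cd63 with no filter on low counts (adjusted p = 0.0677). Of the Kupffer cell, sinusoidal endothelial, stellate, cholangiocyte, monocyte, neutrophil, T or NK and B cell markers, 0 were called in edgeR, with 7 at an unadjusted p under 0.05 and 5 called by DESeq2 (2 Kupffer, 2 monocyte and 1 stellate marker). Without replicate 1, Clec4f, a Kupffer cell lectin, and Chil3, a monocyte marker, were called higher and Reln, a stellate marker, lower in edgeR (log2 fold changes 0.61 ± 0.19, 2.39 ± 0.52 and −0.73 ± 0.21, adjusted p = 0.0415, 0.00803 and 0.0285). The 6 monocyte markers summed to 5.29 to 6.15 CPM in Cpt2L-/- and 8.66 to 11.3 CPM in Cpt2L-/- Ppara KO livers, without overlap, and their part in the other rises was not tested. Of 12 exocrine pancreas markers 10 were at 0 in all 8 libraries. Of 8 adipocyte markers 1, Car3, was tested, and it fell by 1.05 ± 0.2 (adjusted p = 0.0101), a call lost in the fits of 16 (adjusted p = 0.179) and 24 libraries (adjusted p = 0.414).

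A deleted allele can carry a flanking segment of the strain in which it was made, so genes next to Ppara on chromosome 15 were counted apart. Within 5 Mb of Ppara 19 of 100 tested genes were called (19.0%), 11 lower and 8 higher. The share was 16.1% of 504 genes on chromosome 15 and 13.0% over all genes. With single libraries left out, the count within 5 Mb ranged from 7 to 23, so it depends on which libraries enter. Fam19a5 and Bik fell by 2.64 ± 0.41 and 2.57 ± 0.42 (adjusted p = 0.00398 and 0.00476), and Cpt1b, Creld2 and Alg12, named above, lie in the same window. Whether those changes come from the lost receptor or from the segment cannot be told apart.

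The same loss in livers with Cpt2, Ppara KO against Control, was set beside the Cpt2L-/- comparison by an interaction test on the 16 libraries, which asks whether the 2 effects of Ppara loss differ. Of 13615 genes tested 3270 (24.0%) had an adjusted p under 0.05, 1633 (12%) with a positive and 1637 (12%) with a negative difference. Ppara KO against Control alone had 1915 of 12955 genes higher (14.8%) and 1644 lower (12.7%). The interaction also holds differences between Control and all 3 other groups in the test. Cd1d2 was at 18.9 to 61.7 CPM in Control and at most 0.87 CPM in Cpt2L-/-, Ppara KO and Cpt2L-/- Ppara KO libraries, and Rps3a3 at 41.5 to 93.7 CPM and at most 3.4 CPM, both chosen after their values were seen. In the Tsc1 L-/- and Tsc1Cpt2 L-/- libraries of the series, the latter with the liver deletion of Cpt2 too, Cd1d2 was at 12.8 to 38.6 and 11 to 29.1 CPM and Rps3a3 at 33.3 to 79.2 and 49.8 to 96.1 CPM. What sets the libraries apart was not tested. Both genes were near 0 in Cpt2L-/- and in Cpt2L-/- Ppara KO livers. Nnt, a mitochondrial transhydrogenase known to vary between substrains, was at 118, 138, 149.5 and 134 CPM in Cpt2L-/- and at 65.7, 41.6, 60.7 and 69.5 CPM in Cpt2L-/- Ppara KO livers and was also chosen after its values were seen.

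Slc27a1 was at 17.7, 30.7, 17.3 and 18.8 CPM in Control and at 7.75, 7.82, 11.3 and 11.4 CPM in Ppara KO livers, and its log2 fold change there was −1.15 ± 0.23, against −3.65 ± 0.28 in Cpt2L-/- livers (interaction −2.50 ± 0.36, adjusted p = 0.000351). Acsl1 also fell more in Cpt2L-/- livers, with an interaction of −1.42 ± 0.39 (adjusted p = 0.0153). Cyp4a14 and Abcd2 had the reverse, a deeper fall where Cpt2 was present. Cyp4a14 was at 8626, 10690, 6577 and 8417 CPM in Control and at 57.2, 4.74, 21.3 and 12.2 CPM in Ppara KO livers, with an interaction of 4.88 ± 1.19 (adjusted p = 0.00886), and the interaction of Abcd2 was 2.42 ± 0.52 (adjusted p = 0.00394). Without Cpt2L-/- Ppara KO replicate 1 these interactions were 2.77 (adjusted p = 0.0127) and 2.23 (adjusted p = 0.00854). Pdk4 moved in opposite directions, from 12.7, 20.5, 22.8 and 13.2 CPM in Control to 22.4, 208, 287 and 16.4 CPM in Ppara KO livers (log2 fold change 2.93 ± 0.84, adjusted p = 0.0283, with 2 of 4 libraries high) against the fall of 2.95 ± 0.65 in Cpt2L-/- livers (interaction −5.86 ± 1.18, adjusted p = 0.00334, and −7.01, adjusted p = 0.00163, without replicate 1). In the unfolded protein response list the interaction was called for 4 of 20 genes, 3 positive and 1 negative. Hspa5 was at 803, 1116, 575 and 724 CPM in Control and at 2048, 4978, 7513 and 9908 CPM in Ppara KO livers, so it rose without Ppara in livers with Cpt2 as well (2.92 ± 0.44, adjusted p = 0.00142), and its interaction was not called (−0.83 ± 0.55, adjusted p = 0.285). Calr and Pdia6 had interactions of 1.24 ± 0.4 and 1.73 ± 0.37 (adjusted p = 0.0313 and 0.00379). Of 24 cholesterol genes the interaction was called for 12, all positive, with Control libraries that ranged from 3.02 to 67.8 CPM for Idi1. Of the 45 named genes with a called interaction, 42 kept the call without Cpt2L-/- Ppara KO replicate 1, and Cyp4a10 (1.5, adjusted p = 0.0895), Fdps (1.78, adjusted p = 0.0735) and Mvd (2.08, adjusted p = 0.066) did not.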

How the data were processed

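The authors deposited whole-number read counts per gene for 35275 genes, without normalization, and an FPKM table made from them that was not used here. The submitters' processing notes name STAR 2.5, HTSeq 0.6.1, TopHat, Bowtie 0.12.2, DESeq2, edgeR, mm8 and mm9 without roles. Coordinates in the table overlapped GENCODE M21 (GRCm38) genes of the same identifier for 34447 of 34490 matched genes. Counting strand is not given in the sources used here, so reads of overlapping or near-identical genes could be split. Total counts were 14470968 to 18940002 in the 8 libraries.

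Counts were fitted in R 4.3.3 with edgeR 4.0.16 (filterByExpr with a minimum count of 10 and minimum total of 15, TMM, robust quasi-likelihood test, Benjamini-Hochberg adjustment over all tested genes, threshold 0.05), with 4 against 4 libraries and no covariate. The interaction used 16 libraries. CPM were scaled by TMM over all 24 libraries. SE is the absolute log2 fold change divided by the square root of F. Counting intervals cover counting error only. Promoters came from RefSeq (GRCm38.p6). DESeq2 1.42.0, RLE factors, no filter, 16 and 24 libraries, a replicate block, a fold threshold and each library left out were alternatives. Scripts were tested on simulated data.

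The members and the gene lists, 30 of pathways and 13 of cell type markers, were chosen with earlier results of these data known. Named genes are Ppara and Cpt2, up to 6 called genes per list by size of change, uncalled members described with their list, the 12 largest rises and 12 largest falls, the largest interactions and called genes within 5 Mb of Ppara. Derl3, Acnat2, Spats2l, Hsp90b1, Dnajc3, Cd1d2, Rps3a3 and Nnt were chosen after their values were seen, and some genes within the rule are not described.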

Additional observations from a re-analysis of the deposited data

Results flagged for a closer look

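In 250 groups of 4 libraries (the CPM of 125 named genes in each genotype), 39 had 1 library far from the other 3. The gap to its nearest neighbor was above Dixon's critical share of the range. The usual chance rate of about 1 in 20 does not apply here. The named genes were chosen from these data, and many belong to the same pathways, so the flags are a description. In 28 of them the library was Cpt2L-/- Ppara KO replicate 1, the highest of its group each time. The gap as a share of the range was largest for Ehhadh (0.989), Cyp4a10 (0.981), Fabp1 (0.978), Acadvl (0.972), Cyp4a14 (0.964), Hadha (0.959), Decr1 (0.948), Acot1 (0.947), Etfdh (0.945), Fgf21 (0.936), Acaa1b (0.93), Crat (0.921), Hsd17b11 (0.92) and Ucp3 (0.918). It was smaller for Cpt2 (0.916), Cyp4a12b (0.913), Acot3 (0.909), Aqp3 (0.902), Cyp4a12a (0.895), Slc16a1 (0.894), Slc22a5 (0.894), Abcd3 (0.887), Hsd17b4 (0.883), Pex11a (0.872), Cyp4a32 (0.861), Plin5 (0.858), Pparg (0.842) and Acadm (0.839). Replicate 2 of the same group was the highest for Igfbp1 (0.866), Manf (0.862) and Sdf2l1 (0.915) and the lowest for Bdh1 (0.844). In Cpt2L-/- livers, replicate 1 was the highest for Gldn (1.0), which had 1 count in the 4 libraries together. There replicate 1 was the lowest for Slc25a20 (0.848), replicate 3 was the highest for Fdps (0.837) and replicate 3 was the lowest for Cyp4f16 (0.926). Replicate 4 of Cpt2L-/- was the highest for Pparg (0.867), Slc16a1 (0.948) and Srebf1 (0.845). What sets replicate 1 apart was not tested, and the counts do not settle whether its genotype label is right.

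The effect of Ppara loss differed between livers with and without Cpt2 for 45 of the named genes (interaction test in edgeR, adjusted p under 0.05 by Benjamini-Hochberg). The log2 difference was positive, so that the change in Cpt2L-/- livers was the less negative or the more positive, for Cyp4a14 (4.88), Idi1 (4.35), Msmo1 (3.42), Akr1d1 (3.13), Cyp3a59 (3.0), Acmsd (2.66), Cyp4a10 (2.59), Lect2 (2.58), Oat (2.5), Abcd2 (2.42), Slco1a4 (2.4), Bdh1 (2.19), Mvd (2.03), Pecr (1.98), Fdps (1.88), Cyp2a5 (1.84), Pdia6 (1.73), Nnt (1.56), Gsta2 (1.55), Fabp7 (1.42), Ahsg (1.32), Calr (1.24) and Acadm (1.12). It was negative for Aqp3 (−7.71), Ly6d (−6.1), Pdk4 (−5.86), Zfp423 (−5.43), Trpm5 (−4.24), Cyp2b10 (−4.1), Aqp7 (−3.26), Acacb (−2.61), Slc27a1 (−2.49), Cyp4a12b (−2.12), Pnpla2 (−2.02), Plin2 (−1.99), Slc16a13 (−1.8), Gpd2 (−1.66), Slc27a4 (−1.55), Acsl1 (−1.42), Slc16a1 (−1.41), Ucp2 (−1.35), Reln (−1.31), Crat (−1.26), Syvn1 (−1.24) and Fitm2 (−1.17). These values share the limit that Cd1d2 and Rps3a3 show.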

How the results depend on the processing

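Directions did not turn for any of the 125 named genes under the alternatives in edgeR or for the 118 with an adjusted p in DESeq2, and of the 108 called ones 108 kept their call with RLE size factors, 104 without the filter on low counts, 106 of 106 with a value in DESeq2, 100 in the fit of 16 libraries, 97 in the fit of 24 libraries and 87 to 108 when 1 library was left out. The number of called genes, 1679 with all 8 libraries in edgeR, was 2847 in DESeq2 (1548 higher and 1299 lower), 3239 in the fit of all 24 libraries (1803 higher and 1436 lower) and 965 with a log2 fold change of at least 1 (551 and 414). The fit of 16 libraries called 1409 genes higher. Leaving out 1 library moved the total between 625 and 2541, the higher genes between 285 and 1440 and the lower genes between 326 and 1175. For mitochondrial β-oxidation, with 8 falls, there were 14 in DESeq2, 14 in the fit of 16 and 14 in the fit of 24 libraries, and 4 to 20 with 1 library left out. The other ranges with 1 library left out were 12 to 21 falls for peroxisomal β-oxidation, 10 to 18 rises for the unfolded protein response, 7 to 12 rises among genes with the stress element, 7 to 23 called genes within 5 Mb of Ppara and 2396 to 3767 called interactions. With a log2 fold change of at least 1, 10 genes near Ppara were called. In promoters of genes called higher the stricter PPAR motif was found 0 times and the looser one in 1. The cause of these shifts was not tested, except that an added threshold leaves fewer calls by construction.

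Replicate numbers did not pair the libraries: the deviations of same-numbered libraries from their group means correlated at 0.177, −0.0907, 0.127 and 0.1. With the replicate number as a block 2156 genes were called, and 13 genes of mitochondrial β-oxidation fell. Of the 108 named genes called, 106 kept their call with the block, and Trem2 (adjusted p = 0.0508) and Cyp2j5 (adjusted p = 0.0564, both in edgeR with Benjamini-Hochberg adjustment) did not. Depth limits the low genes, since 1 CPM stands for 14.5 to 18.9 reads per library before TMM scaling.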
